A study of Mus musculus with 13 samples.

Results

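The genes described here are 10 targets of the transcription factor p53 that act in cell death: the receptor genes Eda2r, Fas and Tnfrsf10b, the genes Aen, Zmat3, Phlda3 and Perp, and the BCL2 family genes Bax, Bbc3 and Pmaip1. They were taken by symbol from a table of 32544 gene symbols, and all 10 were found there. The libraries are Quant-seq, which reads the 3′ end of polyadenylated transcripts, made from whole lung of wild-type (WT) male C57BL/6J mice bought at 7 weeks of age and, by the methods, studied at 8 to 12 weeks. The normoxia group breathed 21% oxygen (7 libraries) and the hyperoxia group 80% oxygen (6 libraries), both for 5 days. All lungs were flushed with cold buffer before freezing, and no mouse carried a transgene or deletion. The labels number the samples without tying each to an animal, so the p-values measure the spread between these samples. The comparison asks which of the death-related p53 targets differed in RNA level in the lung under high oxygen.

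p53 is held at a low level by the ubiquitin ligase MDM2 and accumulates when DNA is damaged or other stress is sensed. It then binds DNA and raises the transcription of genes that stop the cell cycle, repair DNA or lead to apoptosis. Death receptors of the TNF receptor family start apoptosis at the cell surface through adaptors and caspases, while proteins of the BCL2 family decide whether the outer mitochondrial membrane is opened. High oxygen is a known injury to the alveolar epithelium and endothelium of the lung.

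Promoter windows of 300 bases, 250 before and 50 after an annotated start, were read from RefSeq (GRCm38.p6) for 6 of the 10 genes, in 9 windows; Tnfrsf10b, Zmat3, Perp and Pmaip1 had no entry. The windows were searched on both strands for the p53 half-site consensus, 10 bases of which a full response element holds a pair, and 8.36% of all 32817 windows held at least 1 match. Of the 6 genes, 2 had a match, Aen and Bax, which are printed with the half-site in capitals because one rose and the other did not pass the test.
Aen: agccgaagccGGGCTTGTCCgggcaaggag
Bax: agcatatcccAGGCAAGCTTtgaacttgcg
The Aen stretch lies at chr7:78895927-78895956 on the plus strand, where the half-site begins 10 bases after one annotated start and 121 bases before the other (position -121). The Bax stretch lies at chr7:45467080-45467109 on the minus strand, and its half-site begins at position -201. The windows of Eda2r, Fas, Phlda3 and Bbc3 held no match, which says only that these letters are not in the windows. The window of Eda2r, the gene with the largest log2 fold change of those tested among the 10, is shown in part for its TATAAA sequence, in capitals.
Eda2r: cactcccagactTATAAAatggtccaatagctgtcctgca
This stretch is chrX:97377240-97377279 on the minus strand, with TATAAA beginning at position -58 and the sequence CCAAT at position -47. TATAAA was in 13.6% and CCAAT in 37.4% of all windows. Of the 6 genes with a window, TATAAA was found in Eda2r alone. The GC content was 50.3% in the Eda2r window and between 74.7% and 78.0% in the 3 windows of Bbc3, beside a median of 52.7% over all windows.

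Total counts ran from 1607111 to 3387736 in normoxia and from 2029006 to 4540288 in hyperoxia. Values are CPM, a gene's counts scaled to a common library size after TMM scaling, and 3 counts, the floor used here, were worth between 0.656 and 1.84 CPM. Hyperoxia replicate 1 stood apart from the other libraries, with 14170 symbols detected beside 15476 to 16595 elsewhere and a median correlation with the other libraries of 0.784 beside 0.886 to 0.931. It was the lowest hyperoxic library for 6 of the 9 genes tested and the highest for 2, so values without it are given beside the results. Without it 1934 genes were higher and 1699 were lower, beside 1473 and 1346 with it. Libraries of 1 group differed by more than counting noise in each of the 36 pairs (chi-square per gene 3.79 or more).

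Of the 10 genes, 4 were higher in hyperoxia (Eda2r, Aen, Zmat3 and Phlda3), 0 were lower, 5 did not pass the test (Fas, Tnfrsf10b, Perp, Bax and Pmaip1) and Bbc3 was too low to be tested. The test was edgeR's quasi-likelihood test over 12496 genes with a threshold of 0.05 on the adjusted p, by which 11.8% of all genes were higher and 10.8% were lower. Of the 4, Eda2r, Aen and Phlda3 also had a log2 fold change over 1.5, as did 1.55% of all genes in that direction. In Eda2r, Aen and Zmat3 every hyperoxic library was above every normoxic library, which held for 5.60% of all genes. At an unadjusted p under 0.05 edgeR had 1 gene lower, Pmaip1; DESeq2 and limma-voom called 0 of the 10 lower, and limma on the deposited log CPM called Pmaip1. With 13 libraries, the smallest p that the exact permutation test can give is 0.000583.

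**Figure D1:**
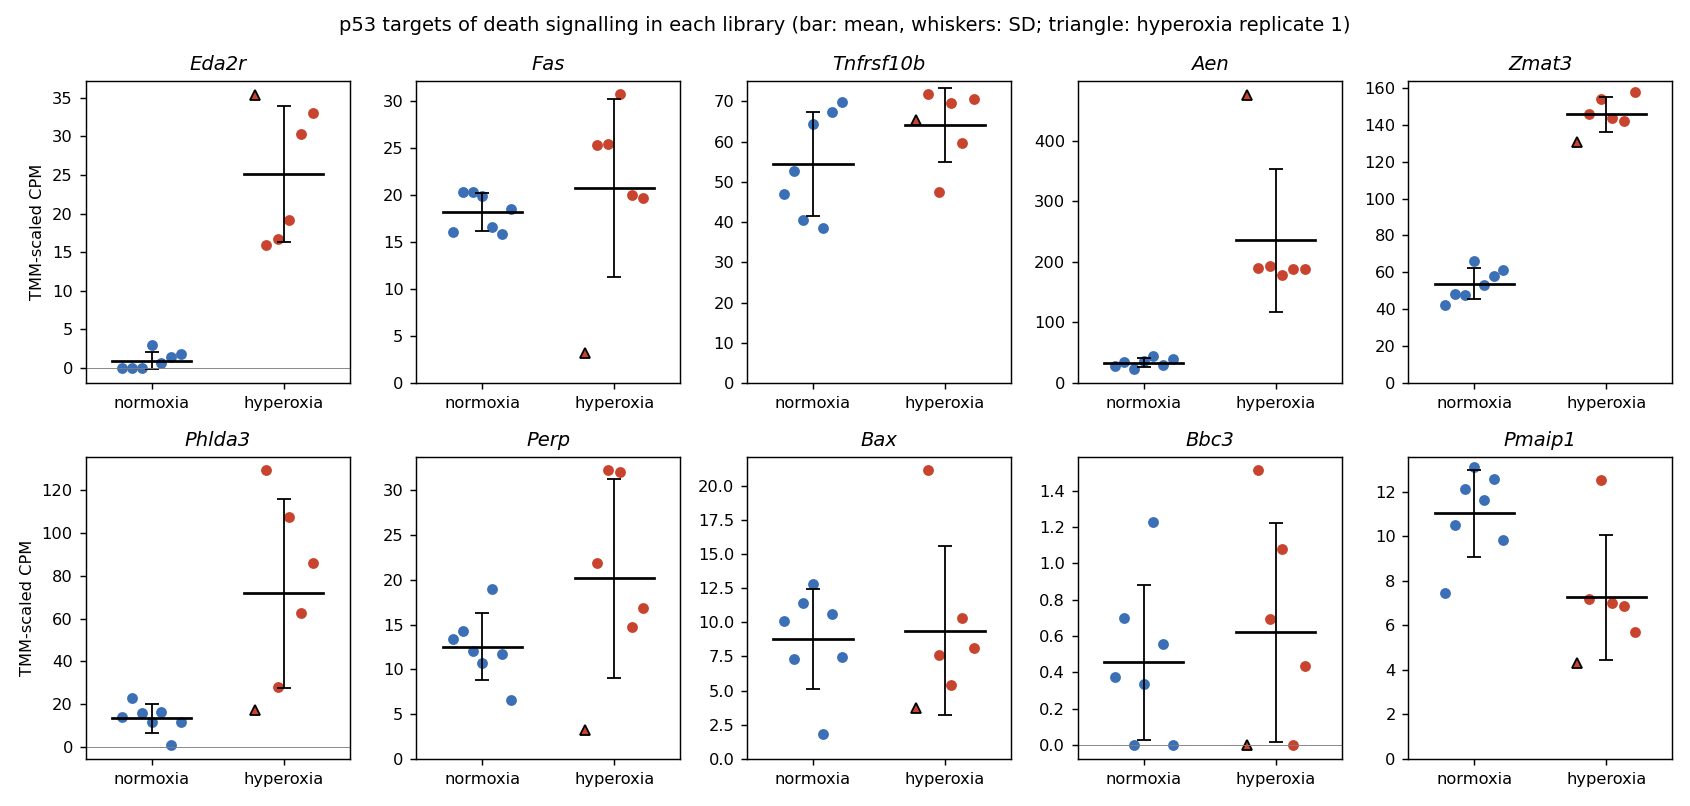
TMM-scaled CPM of the 10 genes in each of the 7 normoxic and 6 hyperoxic libraries (points), with the mean (bar) and SD (whiskers) of each group and hyperoxia replicate 1 as a triangle. The groups do not overlap for Eda2r, Aen and Zmat3, and hyperoxia replicate 1 lies far below the other hyperoxic libraries for Fas and Perp and far above them for Aen.

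Eda2r had the largest log2 fold change of the 9 genes tested and the second rank by it among all genes tested. Its normoxic level was near the floor, and in mean CPM Aen, Zmat3 and Phlda3 rose by more. Genes left out by the filter on low counts have no rank. Eda2r encodes the receptor for the EDA-A2 form of ectodysplasin and lies on the X chromosome (GRCm38, chrX:97333840-97377216, minus strand). In normoxia its level was 0 in the lowest library, 0.613 CPM in the median library and 3.03 CPM in the highest, with no read in 3 of 7 libraries, where a count of 0 allows up to 0.981 to 1.12 CPM. In hyperoxia the lowest library had 15.9 CPM, the median was 24.7 CPM and the highest had 35.4 CPM. Eda2r thus went from near the detection floor, 21 counts over all normoxic libraries, to 475 counts, with at least 42 in each hyperoxic library. The mean was 0.974 ± 1.16 CPM in normoxia (SD, n = 7) and 25.1 ± 8.80 CPM in hyperoxia (SD, n = 6), and the log2 fold change was 4.56 (SE 0.55, 95% interval 3.40 to 5.71, edgeR adjusted p = 2.93e-05). The exact permutation test gave p = 0.000583. Eda2r passed the filter on low counts only through the hyperoxic libraries, since 6 of 6 hyperoxic and 0 of 7 normoxic libraries reached its cutoff, so a tested Eda2r had to differ. The smallest hyperoxic value was still several times the largest normoxic value, and without hyperoxia replicate 1 the log2 fold change was 4.45.

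Fas and Tnfrsf10b, the other receptor genes, did not pass the test. Fas encodes the receptor for Fas ligand (chr19:34290666-34327772, plus strand), and its normoxic libraries lay close together, with a lowest value of 15.9 CPM, a median of 18.4 CPM and a highest of 20.3 CPM. The hyperoxic libraries ran from 3.22 CPM through a median of 22.7 CPM to 30.7 CPM. The low value was that of hyperoxia replicate 1, with 6 counts, while the other 5 lay between 19.7 and 30.7 CPM, and 3 of them were above every normoxic library. The log2 fold change was 0.20 (SE 0.31, 95% interval -0.45 to 0.86, edgeR adjusted p = 0.689), and the exact permutation test gave p = 0.984. Without hyperoxia replicate 1 the log2 fold change was 0.42 and the adjusted p was 0.0631.

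Tnfrsf10b encodes the mouse receptor for the ligand TRAIL (chr14:69767472-69784411, plus strand). Its normoxic values were 38.6 CPM at the lowest, 52.8 CPM at the median and 69.9 CPM at the highest, and its hyperoxic values were 47.6, 67.4 and 71.8 CPM. The groups overlapped, with 3 normoxic libraries below the lowest hyperoxic one, 2 hyperoxic libraries above the highest normoxic one, and 5 of 6 hyperoxic libraries above the normoxic median. The log2 fold change was 0.23 (SE 0.17, 95% interval -0.13 to 0.59, edgeR adjusted p = 0.358, exact permutation p = 0.15). The interval leaves room for a rise of up to 0.59 on the log2 scale.

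The receptors were also compared within each library, as the log2 ratio of a pair of genes, a comparison added after the values were seen. Counts were not corrected for the 3′ end each gene offers, so only the change of a ratio between groups can be read. The log2 ratio of Eda2r over Fas was -3.83 ± 1.05 (SD, n = 7) in normoxia and 0.44 ± 1.5 (SD, n = 6) in hyperoxia, a difference of 4.26. That of Eda2r over Tnfrsf10b was -5.34 ± 0.81 and -1.39 ± 0.51, a difference of 3.95. Neither pair of groups overlapped. These 2 ratios restate the rise of Eda2r itself, which passed the filter through the hyperoxic libraries alone, and are given as a description. The ratio of Fas over Tnfrsf10b was -1.52 ± 0.38 in normoxia and -1.83 ± 1.15 in hyperoxia, and its difference of -0.31 had an exact permutation p of 0.678 (also 0.678 adjusted over the 3 pairs), so for Fas against Tnfrsf10b no shift could be shown. The sign rested on hyperoxia replicate 1, whose ratio was -4.09: the other 5 hyperoxic libraries had -1.38 ± 0.36, a difference of 0.14 from normoxia. With the same library left out, the differences of the ratios that hold Eda2r were 3.71 over Fas and 3.85 over Tnfrsf10b.

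**Figure D2:**
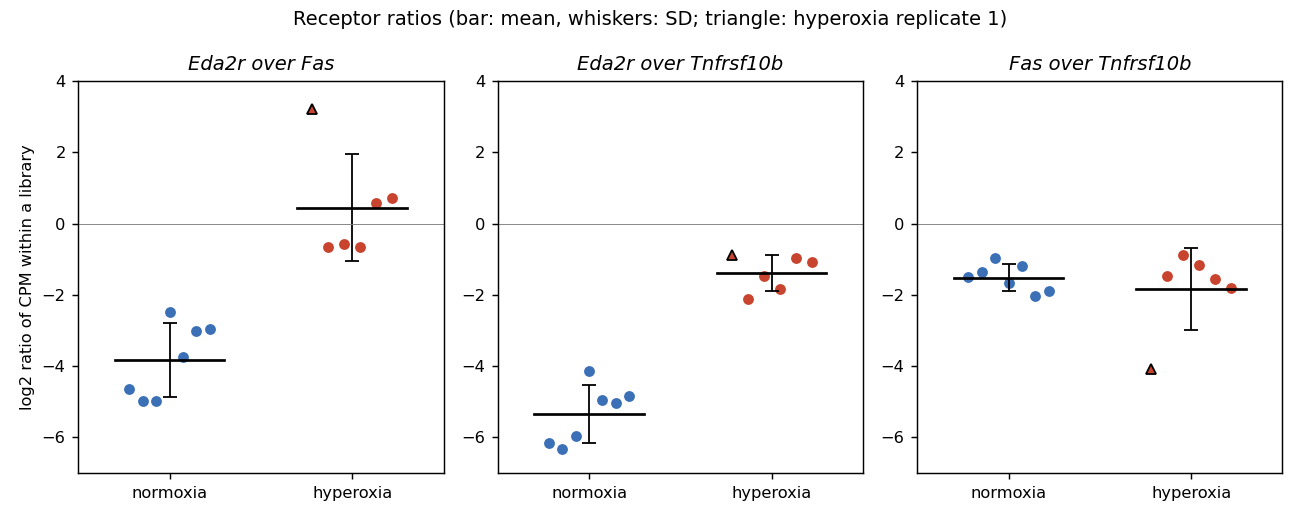
The log2 ratio of TMM-scaled CPM of 3 pairs of receptor genes in each library, with the mean (bar), SD (whiskers) and hyperoxia replicate 1 as a triangle. Both ratios that hold Eda2r are higher in all 6 hyperoxic libraries than in any of the 7 normoxic ones, and the ratio of Fas over Tnfrsf10b overlaps.

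Aen and Zmat3 both rose in every hyperoxic library. Aen encodes an apoptosis-enhancing nuclease of the nucleus (chr7:78895854-78911209, plus strand; its half-site stretch is printed above). Its normoxic libraries ran from 21.6 CPM through a median of 33.2 CPM to 44.1 CPM, and its hyperoxic libraries from 178 CPM through 189 CPM to 477 CPM. The highest value belonged to hyperoxia replicate 1, and the other 5 hyperoxic libraries lay within a narrow range, 178 to 192 CPM, with a mean of 187 ± 5.71 CPM (SD, n = 5). The mean over all libraries rose 7.16-fold, from 32.9 ± 7.60 to 236 ± 118 CPM, with a log2 fold change of 2.84 (SE 0.25, 95% interval 2.30 to 3.38, edgeR adjusted p = 1.91e-06, exact permutation p = 0.000583). Without hyperoxia replicate 1 it was 2.53. Aen ranked 22 among all genes by log2 fold change.

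Zmat3 encodes a zinc finger protein that binds RNA and regulates splicing (chr3:32334792-32366014, minus strand). It was the steadiest of the 9 genes tested by the biological coefficient of variation given below. Within normoxia Fas was steadier, with an SD of log2 CPM of 0.154 beside 0.220 for Zmat3. The normoxic libraries had 42.6 CPM at the lowest, 53.3 CPM at the median and 65.9 CPM at the highest, and the hyperoxic libraries had 131, 145 and 158 CPM. The mean rose 2.70-fold, from 53.9 ± 8.27 to 146 ± 9.52 CPM, and the log2 fold change was 1.43 (SE 0.13, 95% interval 1.16 to 1.70, edgeR adjusted p = 1.89e-06, exact permutation p = 0.000583). The biological coefficient of variation, the spread between libraries of a group beyond counting noise, was 0.176 for Zmat3, below the 0.289 that the trend gave for genes of its abundance. The log2 fold change without hyperoxia replicate 1 was 1.48. Its adjusted p over all libraries was as small as that of Aen although its log2 fold change was smaller by a wide margin.

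Phlda3 rose as well, but unevenly. It encodes a small protein with a pleckstrin homology domain that restrains the kinase AKT (chr1:135766119-135769136, plus strand). In normoxia the lowest library had 0.836 CPM, which is 3 counts in normoxia replicate 6, the median was 14.2 CPM and the highest was 22.7 CPM. In hyperoxia the values were 17.2 CPM at the lowest, in hyperoxia replicate 1, 74.5 CPM at the median and 129 CPM at the highest. The other 5 hyperoxic libraries were above every normoxic library, and hyperoxia replicate 1 lay inside the normoxic range. The mean rose 5.39-fold, from 13.3 ± 6.70 to 71.8 ± 44.3 CPM, with a log2 fold change of 2.45 (SE 0.50, 95% interval 1.38 to 3.52, edgeR adjusted p = 0.00247, exact permutation p = 0.00117). The biological coefficient of variation was 0.616, beside 0.300 on the trend. The fit without hyperoxia replicate 1 gave 2.67. Its call was lost in 2 alternatives: the log2 fold change was 1.87 (adjusted p = 0.0546) in the libraries named B to M alone and 2.31 (adjusted p = 0.0569) with the replicate number as a block.

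Perp, which encodes a membrane protein of desmosomes with a role in apoptosis (chr10:18845020-18857073, plus strand), did not pass the test over all 13 libraries. Its normoxic values were 6.54 CPM at the lowest, 12.1 CPM at the median and 19.0 CPM at the highest. Its hyperoxic values were 3.22, 19.4 and 32.3 CPM. Hyperoxia replicate 1, with 6 counts, was below every normoxic library, and 3 of the other 5 were above every normoxic library. The log2 fold change was 0.71 (SE 0.37, 95% interval -0.06 to 1.49, edgeR adjusted p = 0.181, exact permutation p = 0.388). Without hyperoxia replicate 1 it was 0.95 with an edgeR adjusted p of 0.0114, so the call for Perp turned on that library. In that fit 5 of the 10 genes were higher, beside 1934 of 12752 genes tested. With all 13 libraries, 1473 of 12496 genes tested were higher.

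**Figure D3:**
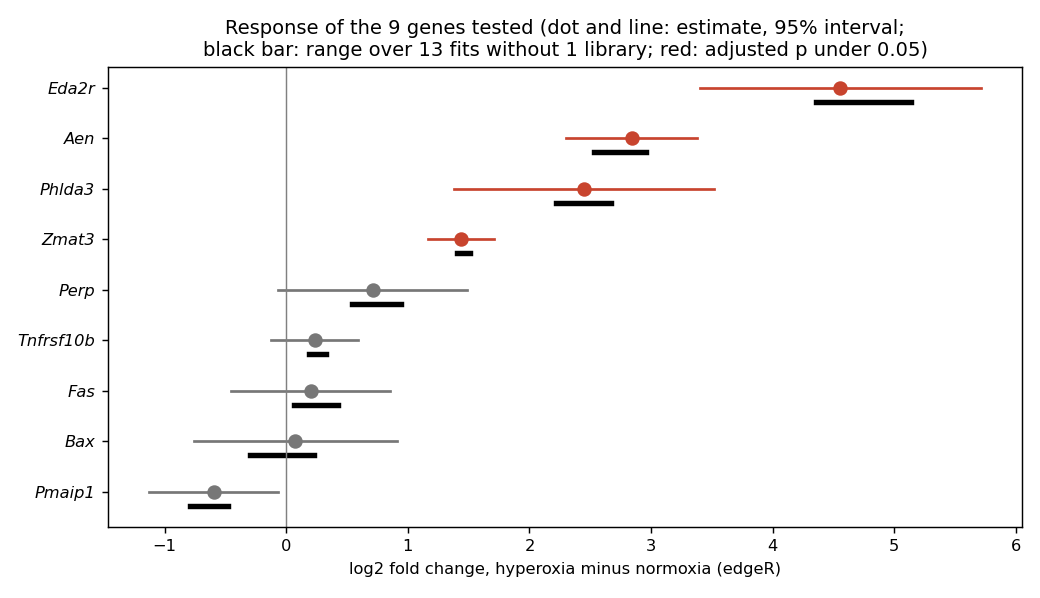
Log2 fold change (hyperoxia minus normoxia) of the 9 genes tested, with its 95% interval (line) and the range over the 13 fits that each leave out 1 library (black bar); red marks an adjusted p under 0.05. The intervals of Eda2r, Aen, Phlda3 and Zmat3 lie above 0, and those of Perp, Tnfrsf10b, Fas and Bax include it; the interval of Pmaip1, -1.13 to -0.07, is for a single gene and lies below 0, although its adjusted p was 0.1.

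Of the 3 BCL2 family genes among the 10, Bax and Pmaip1 did not pass the test and Bbc3 was not tested. Bax encodes an effector that forms pores in the outer mitochondrial membrane (chr7:45461697-45466898, minus strand). Its half-site stretch is printed above. In the annotation its exons overlap those of Gm45808 on the same strand, and whether Bax reads fall in the overlap was not tested. Its normoxic values were 1.84 CPM at the lowest, which is 3 counts in normoxia replicate 5, 10.1 CPM at the median and 12.8 CPM at the highest, and its hyperoxic values were 3.75, 7.87 and 21.2 CPM. The mean was 8.79 ± 3.66 CPM in normoxia and 9.39 ± 6.2 CPM in hyperoxia. The log2 fold change was 0.07 (SE 0.39, 95% interval -0.76 to 0.91, edgeR adjusted p = 0.92, exact permutation p = 0.913), an interval too wide to set a small change in either direction aside, and leaving out hyperoxia replicate 2 turned its sign to -0.30.

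Pmaip1 and Bbc3 encode the BH3-only proteins NOXA and PUMA, which free or activate pore formers such as BAX. Pmaip1 (chr18:66458533-66465565, plus strand) was the only one of the 9 genes tested with a negative log2 fold change. Its normoxic libraries had 7.47 CPM at the lowest, 11.6 CPM at the median and 13.1 CPM at the highest, and its hyperoxic libraries had 4.29, 6.94 and 12.5 CPM. Of the 6 hyperoxic libraries, 1 (hyperoxia replicate 3) was above the normoxic median, and the other 5 were below the lowest normoxic library. The log2 fold change was -0.60 (SE 0.25, 95% interval -1.13 to -0.07) with an edgeR adjusted p of 0.1, and the exact permutation test of this single gene gave p = 0.014. Without hyperoxia replicate 3 it was -0.79 with an adjusted p of 0.0202. Bbc3 (chr7:16308393-16318205, plus strand) had 8 counts over the 7 normoxic and 12 over the 6 hyperoxic libraries, at most 2 and 4 in a single library. No difference in Bbc3 was detectable at this depth.

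The library names form 2 runs of letters, B to M with 5 normoxic and 3 hyperoxic libraries and O to S with 2 and 3, and what the letters stand for is not given. Within each run Eda2r (log2 fold change 4.88 and 4.08), Aen (3.22 and 2.42) and Zmat3 (1.52 and 1.30) were past the threshold. Phlda3 had 1.87 (adjusted p = 0.0546) in the first run and 3.79 (adjusted p = 0.00474) in the second, and the test of the difference between the runs gave 1.94 (SE 1.05, edgeR adjusted p = 0.54). Perp had 0.53 and 1.20, Fas 0.00 and 0.44, Tnfrsf10b 0.39 and -0.05, Bax 0.33 and -0.20, and Pmaip1 -0.39 and -0.79, all short of the threshold. Leaving out hyperoxia replicate 1 gave 0.24 for Tnfrsf10b, 0.22 for Bax and -0.48 for Pmaip1, also short of it. The response of none of the 9 genes was shown to differ between the runs. Over all genes the share past the threshold for such a difference was 0%, with 1158 of 12496 genes at an unadjusted p under 0.05, and edgeR was the only tool run for it.

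The ligands and adaptors that act with the receptors were counted next, from 19 genes; 15 passed the filter and were tested. In hyperoxia 3 were higher, 2 were lower and 10 did not pass, with a median log2 fold change of 0.26 beside -0.03 over all genes tested. The shares over all genes tested were 11.8% higher and 10.8% lower, and no list was tested as a set against them. Tnfsf10, which encodes TRAIL, the ligand of the Tnfrsf10b product, fell from 79.0 ± 16.1 to 22.5 ± 8.15 CPM, and the lowest normoxic library (60.2 CPM) was above the highest hyperoxic one (32.7 CPM). Its log2 fold change was -1.82 (SE 0.22, edgeR adjusted p = 3.79e-05). The ligand gene therefore fell, and for the receptor gene Tnfrsf10b no difference was shown. Eda, the gene for the ligand of the Eda2r product, had 28 counts in normoxia and 16 in hyperoxia, and Fasl had 21 and 5, and both were too low to be tested.

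Within the same list Faim2, a gene for an inhibitor of Fas-mediated apoptosis, fell from 13.1 ± 2.22 to 3.03 ± 1.15 CPM (log2 fold change -2.13, edgeR adjusted p = 4.87e-05). Faf1, whose product binds Fas, rose from 46.6 ± 7.22 to 84.1 ± 13.2 CPM (0.85, edgeR adjusted p = 0.000651). Ripk1, a kinase gene of the receptor complex, named after its value was seen, rose as well (0.82, edgeR adjusted p = 0.0149), a call lost with the replicate block and within each run of letters alone.

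Among the other TNF receptor family genes, 13 of 25 were tested, 1 was higher, 3 were lower and 9 did not pass, with a median log2 fold change of -0.22. All genes tested had 11.8% higher and 10.8% lower. Tnfrsf12a, which encodes the receptor of the cytokine TWEAK, was the one that rose, from 3.52 ± 1.27 to 21.5 ± 16.4 CPM (2.66, edgeR adjusted p = 0.00373). Its hyperoxic libraries ran from 0 to 43.6 CPM, and its call was lost with limma-voom, limma on log CPM, the replicate block and the libraries B to M alone. Ltbr, a lymphotoxin receptor gene, was called higher as well when normoxia replicate 4 or hyperoxia replicate 1 was left out. Tnfrsf19 fell from 52.0 ± 6.81 to 24.0 ± 5.81 CPM (-1.12, edgeR adjusted p = 0.000194). Tnfrsf13c (-1.60) and Cd27 (-1.60), receptor genes of lymphocytes, fell together with the B cell markers, all 4 of which were lower, with a summed level of 110 to 156 CPM in normoxia and 29.2 to 67.6 CPM in hyperoxia. The calls of Tnfrsf19, Tnfrsf13c and Cd27 were lost in the libraries B to M alone. In whole lung, fewer cells of a type and less RNA per cell cannot be told apart.

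The mitochondrial partners of Bax, Bbc3 and Pmaip1 were 22 genes, 19 of them tested, of which 3 were higher, 2 were lower and 14 did not pass, with a median log2 fold change of -0.28. Of all genes tested, 11.8% were higher and 10.8% were lower, so these calls do not set the list apart. Bcl2l1, which encodes BCL-XL (its short splice form promotes death), rose from 36.3 ± 14.1 to 232 ± 76.9 CPM, and the highest normoxic library had 48.2 CPM and the lowest hyperoxic library 124 CPM. Its log2 fold change was 2.68 (SE 0.31, edgeR adjusted p = 1.92e-05). Mcl1, another gene that opposes pore formation, rose from 307 ± 18.9 to 517 ± 72.8 CPM (0.75, edgeR adjusted p = 0.00042), also without overlap. The other antagonist genes of the list, named after their values were seen, did not pass, with log2 fold changes of -0.35 for Bcl2, -0.23 for Bcl2l2, -0.69 for Bcl2a1b and -0.66 for Bcl2a1d. Bcl2 was called lower in the libraries O to S alone and with at least 10 counts in every library.

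Cycs, the gene for cytochrome c, rose as well (log2 fold change 1.01, edgeR adjusted p = 0.00322), a call lost with the replicate block. The genes that fell were those of 2 further BH3-only proteins. Bmf fell from 8.95 ± 2.28 to 3.14 ± 0.62 CPM (-1.51, edgeR adjusted p = 0.000777), a call lost in the libraries B to M alone, and Bcl2l11, which encodes BIM, had -0.51 (edgeR adjusted p = 0.0335). Of the 13 fits that leave out 1 library, the call for Bcl2l11 was kept in 3, those without normoxia replicate 5, normoxia replicate 7 or hyperoxia replicate 1, and its log2 fold change ran from -0.59 to -0.35 over all alternatives. Its call was also lost with no filter, with the replicate block and in each run of letters alone. Cycs and Bcl2l11 are named after their values were seen.

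**Figure D4:**
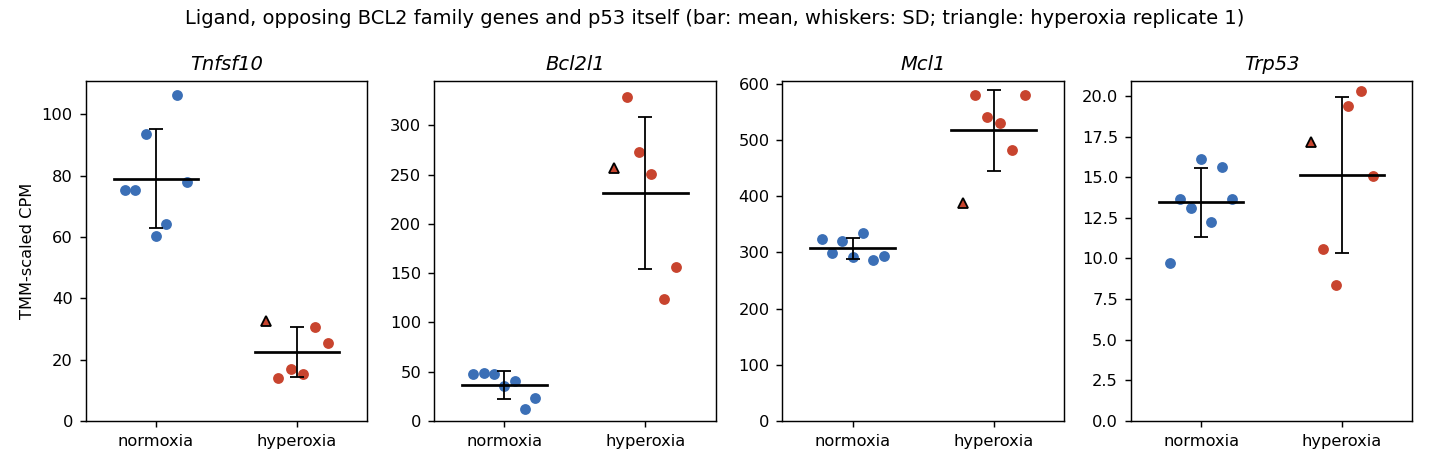
TMM-scaled CPM of the ligand gene Tnfsf10, the BCL2 family genes Bcl2l1 and Mcl1 and the p53 gene Trp53 in each library, with the mean (bar), SD (whiskers) and hyperoxia replicate 1 as a triangle. Tnfsf10 is lower and Bcl2l1 and Mcl1 are higher in all 6 hyperoxic libraries than in any normoxic one, and Trp53 overlaps.

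The p53 gene itself, Trp53, had 13.4 ± 2.14 CPM in normoxia and 15.1 ± 4.82 CPM in hyperoxia (log2 fold change 0.17, edgeR adjusted p = 0.641), and its protein was not measured in these libraries. Of 15 genes tested for the p53 family, its regulators and kinases, 3 were higher (Mdm2, Rchy1 and Usp7), 1 was lower (Trp53bp2) and 11 did not pass, with a median of 0.13. Beside them, 11.8% of all genes tested were higher and 10.8% were lower. Mdm2 rose from 46.8 ± 4.35 to 115 ± 31.3 CPM (1.30, edgeR adjusted p = 6.9e-05). Rchy1, another ubiquitin ligase gene, rose by 0.64 on the log2 scale (edgeR adjusted p = 0.0104), a call lost with the replicate block and in the libraries O to S alone. Trp53bp2, whose product binds p53, fell from 73.7 ± 13.7 to 42.2 ± 10.5 CPM (edgeR adjusted p = 0.00454). Usp7, named after its value was seen, had 0.45 and kept its call in 5 of the 13 fits that leave out 1 library. The Usp7 call was also lost with the replicate block, the run of letters as a term and each run alone. Library size alone, limma on log CPM and no filter lost it too.

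Among p53 targets outside the 10 genes, 29 of 35 were tested, 13 were higher, 2 were lower and 14 did not pass, with a median log2 fold change of 0.64 beside 0.71 for the 9 death-related genes tested. Shares over all genes tested were 11.8% higher and 10.8% lower. Cdkn1a, the gene for the cell cycle inhibitor p21, rose from 48.7 ± 12.8 to 1424 ± 255 CPM (4.86). Ccng1 (2.22) and Polk, a gene for a translesion DNA polymerase (1.44), rose without overlap between the groups. There were 18 higher and 3 lower without hyperoxia replicate 1, 9 and 0 with the replicate block, 8 and 1 in the libraries B to M alone, and 17 and 1 in the libraries O to S alone. The 2 that fell over all libraries, Sesn1 (-1.25) and Pltp (-1.45), are named after their values were seen. Sesn1 lost its call with the replicate block and in the libraries B to M alone, and Pltp lost its call without any of normoxia replicates 1 to 5 or hyperoxia replicate 3 and ran from -2.40 to 0.20 over all alternatives. Perp's partners in the desmosome were 10 genes, of which 5 were tested and 0 passed in either direction (median -0.05), with Jup at -0.45, Pkp4 at -0.30 and Dsp at 0.28. In edgeR 1 of the 5, Jup, was lower at an unadjusted p under 0.05. DESeq2 and limma-voom called 0 of them, limma on the deposited log CPM called 1 lower, Jup, as did library size alone and a minimum of 10 counts in every library. edgeR called Jup lower without normoxia replicate 6 and Pkp4 lower without hyperoxia replicate 1.

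**Figure D5:**
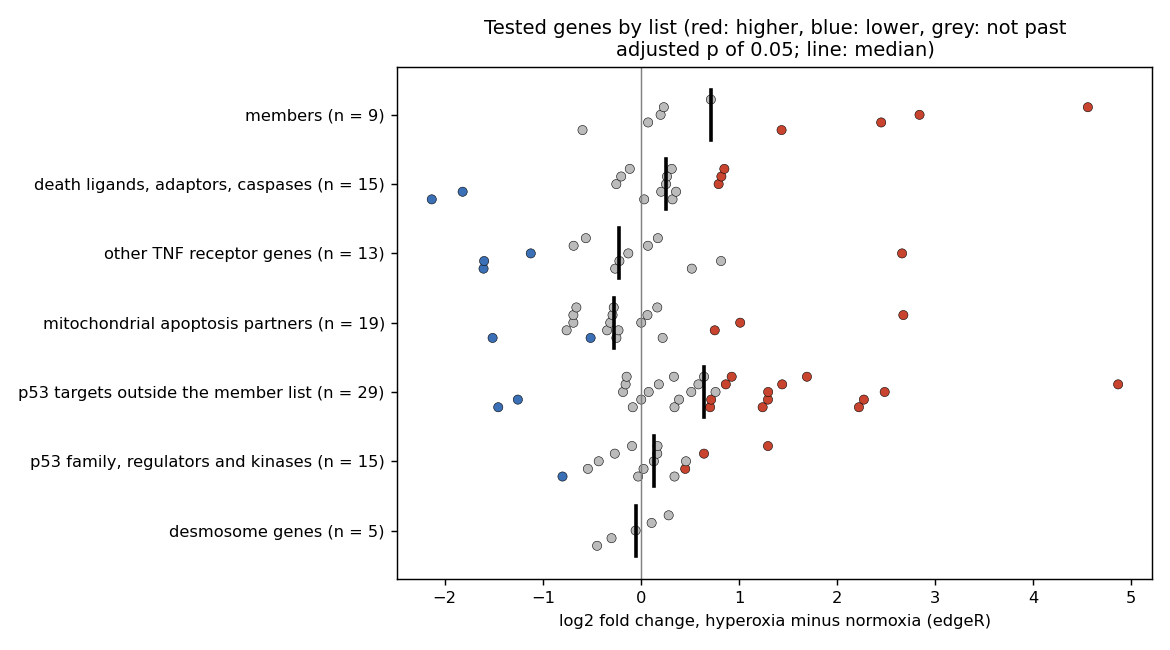
Log2 fold change (hyperoxia minus normoxia) of every tested gene in the 10 p53 targets of cell death (members) and in 6 lists of related genes; red is higher, blue is lower and grey is not past an adjusted p of 0.05, and the vertical line is the median. The medians are 0.71 for the members and 0.64 for the other p53 targets, and lie between -0.28 and 0.26 for the other lists.

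The genes whose profile over the 13 libraries was closest to the median profile of the 9 genes tested were Stt3b, Lpar1, Ghitm, 2310007B03Rik and Mrps30. The measure was the root mean square difference in log2 CPM relative to the normoxic mean, and it was 0.233, 0.234, 0.267, 0.275 and 0.275 for them, among 10104 candidates. The median profile was 0.30 in hyperoxia replicate 1, 1.36, 1.34 and 1.36 in replicates 2 to 4, 0.37 in replicate 5 and 0.46 in replicate 6, and it lay between -0.17 and 0.26 in normoxia. The median profile therefore took high and low values within the hyperoxic group. It follows whichever gene is in the middle of the 9, and the genes did not split alike. In replicates 2 to 6, Zmat3 ran from 142 to 158 CPM and Aen from 178 to 192 CPM. Eda2r was lower in replicates 2 to 4 (15.9 to 19.1 CPM) than in replicates 5 and 6 (30.3 and 33.0 CPM).

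Cell type markers moved with the groups, and their part in the results above was not tested. In hyperoxia 6 of 7 markers of alveolar type 2 epithelium were lower, with a summed level of 12398 to 23147 CPM in normoxia and 3187 to 6881 CPM in hyperoxia. Markers of transitional alveolar epithelium were higher in 4 of 6 tested, with 353 to 608 CPM and 1243 to 2134 CPM. Within that sum Lgals3 alone averaged 304 CPM in normoxia and 1146 CPM in hyperoxia. The keratin genes Krt8 and Krt19 did not pass (edgeR adjusted p = 0.131 and 0.0627). Of the 4 that were higher, Krt18 and Sfn lost their call with the replicate block and in the libraries B to M alone. Krt18 also lost it with limma-voom and limma on log CPM. The fibroblast marker Col3a1 lost its call with the block and in B to M. Other marker calls lost in the libraries B to M alone were those of Sftpc, Slc34a2, Scgb1a1, Ccdc153, Cd79a, Ms4a1, Cd3d, Hbb-bt, Siglecf and Rtkn2. The club cell markers were lower in 2 of 4, with 14493 to 53126 CPM in normoxia and 185 to 10088 CPM in hyperoxia, where hyperoxia replicate 1 was the lowest. Of the other lists, the alveolar type 1 markers had 1 higher and 1 lower of 7, endothelium had 1 lower of 7, fibroblasts had 2 higher of 5, ciliated cells 1 lower of 5, alveolar macrophages 3 lower of 6, T and NK cells 1 lower of 2 and red blood cells 1 lower of 4. Rtkn2, the alveolar type 1 marker that was lower, lost its call in 9 of the 13 fits without 1 library, and the macrophage marker Krt79 in 10. Without hyperoxia replicate 1, Krt8, Krt19, Cldn5 and Chil3 were also called higher and Scgb3a2, Kdr, Klrb1c and Dynlrb2 lower. Without hyperoxia replicate 2, Alas2, Hbb-bs and Tmem212 were also called lower. Other calls gained by leaving out 1 library, all lower, were Dynlrb2 (normoxia replicate 6), Birc5 (hyperoxia replicate 3), S100a9 (hyperoxia replicate 4), and Pecam1 and Cdk1 (hyperoxia replicate 5). Neutrophil and dividing cell markers had 0 calls in edgeR among 4 and 5 tested. At an unadjusted p under 0.05 there were 0 neutrophil markers and 2 dividing cell markers, both lower, and DESeq2, limma-voom and limma on log CPM each called 0 of the former and 1 of the latter. Hyperoxia replicate 1, low in Fas and Perp, was also the lowest hyperoxic library for the endothelial (1363 CPM), macrophage (40.7 CPM) and neutrophil (41.3 CPM) sums. The defining epithelial markers Sftpc and Scgb1a1 were abundant in both groups, with normoxic and hyperoxic means of 9637 ± 2850 and 1465 ± 1010 CPM for Sftpc and of 33862 ± 12543 and 4349 ± 2986 CPM for Scgb1a1, while 8 markers over all lists, such as Cldn4, Ly6g and Cd3e, were too low to be tested.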

How the data were processed

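Lung RNA of 7 normoxic and 6 hyperoxic mouse samples was prepared with a Lexogen 3′ kit and sequenced on an Illumina instrument. The authors quantified reads with kallisto in the BioJupies pipeline (genome build mm10 in the submitters' notes) and deposited raw counts per gene symbol, without molecular identifiers, so floors cover counting error only. The deposited log10 values are log10 of CPM plus 1 and were recomputed from the counts to within 4.4e-16. The submitters' notes and methods name limma 3.54.2 for their statistics. Samples were grouped by their labels, and 0 columns were left unmapped.

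Counts were tested with edgeR 4.0.16 in R 4.3.3 (glmQLFit, glmQLFTest, TMM, filterByExpr, Benjamini-Hochberg over 12496 genes, adjusted p of 0.05). The paper's methods name limma on CPM, which was run as an alternative because raw counts need a count test. Standard errors are the log2 fold change over the square root of F. log2 CPM used a prior count of 2, and single genes also had an exact two-sided permutation test over 1716 splits. Alternatives were DESeq2 1.42.0, its size factors, library size alone, limma 3.58.1 (voom, and deposited log values), other filters, the replicate block, the letter runs, a robust dispersion, a fold threshold, and each library left out. The fits were tested on simulated data. Coordinates are from GENCODE M21 (GRCm38), matched by symbol.

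The 10 genes, the 6 lists of related genes and the 13 marker lists were chosen with earlier results of these data known. Named beside the 10 are the 3 genes of smallest adjusted p in each related list, Trp53, Mdm2, Cdkn1a, Eda, Fasl and Tnfsf10, and the 5 closest profiles among genes whose mean log2 CPM was 3 or more. Other genes were named after their values were seen, and 1 gene that enters the list counts is not reported here by name.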

Additional observations from a re-analysis of the deposited data

Results flagged for a closer look

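Within each group, a gene's highest or lowest library was compared with the rest by Dixon's ratio, the gap to the nearest library over the whole range of log2 CPM. Of 20 groups examined, 6 held a library past the 95% critical value, where chance gives about 1 in 20, and 3 of the 6 were hyperoxia replicate 1.

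Aen was highest in hyperoxia replicate 1, at 477 CPM beside 178 to 192 CPM in the other 5 (ratio 0.919). Fas was lowest there, at 3.22 CPM beside 19.7 to 30.7 CPM (ratio 0.793), and so was Perp, at 3.22 CPM beside 14.7 to 32.3 CPM (ratio 0.643). The same library was thus high in one p53 target and low in others, and Zmat3 in it (131 CPM) was close to the other hyperoxic libraries (142 to 158 CPM). In normoxia, Phlda3 was lowest in replicate 6, with 3 counts (ratio 0.76), and Bax was lowest in replicate 5, also with 3 counts (ratio 0.691). Normoxia replicate 5 also had the lowest total count of its group, 1607111 (ratio 0.612).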

How the results depend on the processing

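Eda2r, Aen and Zmat3 kept their direction and their call under every alternative in which they were tested, with log2 fold changes of 3.80 to 5.21, 2.42 to 3.22 and 1.30 to 1.52. For Eda2r most of these alternatives reused the filter on low counts, which it passed through the hyperoxic libraries alone. Its kept calls are therefore a description and not support. Phlda3 kept its direction, with 1.87 to 3.79, and missed the threshold in the libraries B to M alone (1.87) and with the replicate block (2.31). A minimum of 10 counts in every library left 3 of the 10 genes to be tested and 2 called higher. Limma on the deposited log CPM called 1 of the 10 lower, Pmaip1 (-0.65, adjusted p = 0.0457), and gave Fas -0.11 and Bax -0.018. Bax also turned negative with limma-voom (-0.046), the replicate block (-0.041) and in the libraries O to S alone (-0.20), where Tnfrsf10b was -0.054. With each library left out in turn, Perp ran from 0.54 to 0.95, Bax from -0.30 to 0.22 and Pmaip1 from -0.79 to -0.48, and 0 to 1 of the 10 genes were called lower. Perp passed the threshold without hyperoxia replicate 1 and Pmaip1 without hyperoxia replicate 3. The cause was not tested.

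Over all genes, the counts higher and lower were 1473 and 1346. They were 718 and 626 with the replicate block, 679 and 441 in the libraries B to M alone, and 194 and 294 with a log2 fold change threshold of 1.5. In the lists of related genes, 22 genes were higher and 10 were lower. There were 12 higher with the block, 14 and 4 in the libraries B to M alone, and 7 and 5 with the fold threshold. The libraries O to S alone gave 1438 and 1356 over all genes and 22 and 11 in the lists. Without hyperoxia replicate 1 the lists had 28 and 13. Of the calls, 52.3% were higher, beside 42.7% with library size alone, 38.8% with limma on log CPM and 60.6% in the libraries B to M alone. The median over all genes tested moved from -0.03 to -0.16 with limma on log CPM, and a log2 fold change there is to be read against that shift. The replicate block changed no other call among the 10 genes. Replicate numbers did not pair the libraries, since deviations of same-numbered libraries correlated between -0.33 and 0.27 and 0 of 6 hyperoxic libraries correlated best with their own number. At 3 counts per library a gene below about 1 CPM cannot be followed, which limits Bbc3, Eda and Fasl.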

Other observations

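Among the p53 targets left out by the filter on low counts, some were near the floor in normoxia. Gdf15, which encodes a secreted stress cytokine, had 3 counts over the 7 normoxic libraries and 739 over the 6 hyperoxic ones, where hyperoxia replicate 1 had 1 count and the highest library 214. Gtse1, a gene of the G2 and S phases, had 9 and 152 counts, with 0 in hyperoxia replicate 1 and at most 41 elsewhere. Eda2r, with 21 counts in normoxia, had 66 in hyperoxia replicate 1. In the other 5 hyperoxic libraries Gdf15 had 41 counts or more and Gtse1 12 or more. Gdf15 and Gtse1 were picked after their values were seen. Of the other targets left out by the filter, Ddb2 had 68 counts in normoxia and 29 in hyperoxia. Pidd1 had 17 and 22 counts, and Ddit4 had 36 and 76.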
